A study of Mus musculus with 12 samples.

Results

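Expression of 10 genes of MHC class I antigen presentation was analyzed in a mouse proximal tubule (PT) cell culture, with and without the TGF-β type II receptor (TβRII, gene Tgfbr2) and with and without H2O2. The genes were taken from a list: the heavy chains H2-K1, H2-D1 and H2-T23, the light chain B2m, the peptide transporter Tap1 and Tap2, the loading chaperone Tapbp, the immunoproteasome subunits Psmb8 and Psmb9, and the transactivator Nlrc5. Each was represented by its transcript with the highest total count. All 10 were found among 25514 genes and all 10 passed the filter on low counts, as did 12971 genes in all.

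The 12 RNA-seq libraries came from conditionally immortalized PT cells of male mice with the genotype H2ts6;Tgfbr2fl/fl, n = 3 libraries in each of 4 groups. TβRII flox/flox PT cells (floxed cells below) kept both receptor alleles, and TβRII-/- PT cells were made from such cells by adenoviral Cre in culture. Untreated cells of both genotypes were kept in normal culture medium, and treated cells of both received H2O2 for 24 h in serum-free medium. The labels give its dose as 200 mM, and the study's methods give a dose a thousandth of that. In all 4 groups the cells had been grown at 33 °C with interferon gamma (IFNγ) and were moved to 37 °C 5 days before the experiment, when, by the study's methods, IFNγ was withdrawn. This history matters for the genes studied, since IFNγ is the classical inducer of the MHC class I pathway. In addition, the T antigen of the Immorto-mouse, the source of these cells, is driven by an MHC class I promoter. It was carried by all 4 groups and its transcript was not analysed here. Peroxide and the change of medium cannot be told apart, and neither can the receptor deletion and anything else that sets the Cre-treated cells apart from the floxed ones. The study's methods state, for its in vitro work in general, at least 3 repeats as separate experiments or biological replicates. The labels do not say which of these the 3 libraries of a group are, so p-values measure the spread between these libraries, which may in part be technical.

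MHC class I molecules show short peptides from inside the cell to CD8 T cells. The proteasome cuts proteins into peptides, the Tap1/Tap2 transporter carries them into the endoplasmic reticulum (ER), and the loading complex, with tapasin (Tapbp), fits them onto a heavy chain bound to β2-microglobulin (B2m). Under IFNγ the catalytic subunits Psmb8, Psmb9 and Psmb10 replace the constitutive Psmb5, Psmb6 and Psmb7, and Nlrc5 is recruited to the promoters of the heavy chains, B2m, Tap1 and Psmb9. Kidney tubule cells carry MHC class I at low levels and raise it during inflammation and graft rejection.

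Of these genes, 8 lie in the MHC region of chromosome 17, between Tapbp and H2-T23, at 33919478 to 36032701 of GRCm38.p6. In order they are Tapbp (33919478 to 33929290), H2-K1 (33996012 to 34000619), Psmb9 (34182030 to 34187330), Tap1 (34187556 to 34197225), Psmb8 (34198195 to 34201454), Tap2 (34204479 to 34216321), H2-D1 (35263094 to 35267497) and H2-T23 (36029977 to 36032701). B2m is on chromosome 2 (122147687 to 122153082) and Nlrc5 on chromosome 8 (94434335 to 94527272). Promoter sequences, from 250 bases before to 50 bases after the transcription start, were taken from RefSeq on GRCm38.p6 for 8 of the 10 genes. Tap2 and Nlrc5 had no entry. Nlrc5 acts through a composite element whose X2 box holds the letters TGACG and whose Y box holds CCAAT, which on the other strand reads ATTGG, so the promoters of genes whose levels are compared below are printed with every match to these letters in capitals. Capitals also mark matches to the κB-type motif GGGNNTTCC and to the IRF-type motif GAANNGAAA, both strands searched. For H2-K1 the more upstream of 2 listed starts, 14 bases apart, was used. That start, at 34000347, lies inside the gene span given above, whose upstream end is 34000619. The H2-K1 window is therefore not the stretch before that end. Counted from the starts used, TGACG begins at −41 in H2-K1 and at −101 in H2-D1, so these positions are not directly comparable.
H2-K1 (chr17:34000298-34000597, minus strand): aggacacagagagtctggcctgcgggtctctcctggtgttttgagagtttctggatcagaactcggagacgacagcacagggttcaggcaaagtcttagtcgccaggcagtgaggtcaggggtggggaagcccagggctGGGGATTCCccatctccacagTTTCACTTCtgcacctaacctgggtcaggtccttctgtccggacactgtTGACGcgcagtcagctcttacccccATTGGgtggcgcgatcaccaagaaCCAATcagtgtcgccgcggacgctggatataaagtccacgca
H2-D1 (chr17:35262844-35263143, plus strand): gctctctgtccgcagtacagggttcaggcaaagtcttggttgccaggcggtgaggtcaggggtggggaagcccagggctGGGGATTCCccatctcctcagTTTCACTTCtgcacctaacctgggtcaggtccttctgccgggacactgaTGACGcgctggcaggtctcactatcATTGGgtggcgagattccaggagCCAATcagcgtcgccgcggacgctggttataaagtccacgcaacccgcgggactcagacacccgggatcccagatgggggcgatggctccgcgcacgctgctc
B2m (chr2:122147437-122147736, plus strand): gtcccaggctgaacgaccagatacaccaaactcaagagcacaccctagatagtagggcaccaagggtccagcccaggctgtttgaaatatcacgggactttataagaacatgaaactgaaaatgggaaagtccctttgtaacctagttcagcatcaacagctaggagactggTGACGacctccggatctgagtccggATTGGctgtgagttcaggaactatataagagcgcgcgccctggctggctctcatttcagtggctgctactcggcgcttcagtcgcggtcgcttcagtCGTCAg
H2-T23 (chr17:36032652-36032951, minus strand): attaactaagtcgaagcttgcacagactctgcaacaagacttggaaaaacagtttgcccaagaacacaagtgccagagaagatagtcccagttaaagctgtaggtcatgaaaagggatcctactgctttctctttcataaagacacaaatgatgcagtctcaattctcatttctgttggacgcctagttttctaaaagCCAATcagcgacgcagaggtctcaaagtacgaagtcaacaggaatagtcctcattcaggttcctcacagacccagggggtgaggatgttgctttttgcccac
Tap1 (chr17:34187306-34187605, plus strand): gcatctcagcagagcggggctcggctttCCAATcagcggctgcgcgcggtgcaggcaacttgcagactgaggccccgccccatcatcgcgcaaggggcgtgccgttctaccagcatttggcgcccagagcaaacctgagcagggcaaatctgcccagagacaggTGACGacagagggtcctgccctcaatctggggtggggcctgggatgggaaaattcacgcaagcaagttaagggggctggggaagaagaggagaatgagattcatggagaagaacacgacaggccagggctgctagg

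Among the 8 promoters, 7 held CCAAT, against 37.4% of 32851 mouse promoters of this length, and 5 held TGACG, against 20.8%. The same 5 genes, H2-K1, H2-D1, B2m, Tap1 and Psmb9, held both, against 7.73% of all promoters. In H2-K1, H2-D1 and B2m, TGACG was followed by ATTGG with 20 bases between them, an arrangement looked for after it had been seen in these sequences and present in 31 promoters in all. H2-T23 held CCAAT without TGACG in this window. The κB-type motif was found in H2-K1 and H2-D1, against 5.82% of all promoters, and so was the IRF-type motif, against 7.52%. The GAS-type motif TTCNNNGAA was found in Psmb8 alone, against 8.3% (the windows shown hold none). The starts of Psmb9 and Tap1 lie 226 bases apart on opposite strands, so that their windows share 275 bases and the TGACG printed for Tap1 is also that of Psmb9, read on the other strand. A match describes these letters in this window only.

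The libraries held between 15870155 and 20857618 counts over the representative transcripts, and counts below were normalized to a common library size (the mean effective size of 17351835). Tgfbr2 itself was still counted in TβRII-/- cells, at 6605 ± 220.3 normalized counts untreated and 7216 ± 97.7 with H2O2 (SD, n = 3), against 8393 ± 843 and 13633 ± 328 in floxed cells. Both differences were in the direction of the labels (log2 change −0.35 and −0.92, adjusted p = 2.81e-05 and 6.62e-14 by edgeR). Which exons these counts came from cannot be told from the files. Of 12 PT markers, Lrp2 and Aqp1 were abundant and Slc34a1, Slc22a6, Slc22a8 and Hnf4a had at most 2 counts in any library. Of the 7 that could be tested, all 7 were lower in untreated TβRII-/- cells at an adjusted p under 0.05 by edgeR, against 31.4% of all genes tested. Of 10 immune cell markers, Cd3e, Cd8a, Ncr1, Adgre1 and Itgax were at 0 in every library and Ptprc had at most 6 counts, whereas Csf1r was counted at 868 normalized counts in untreated floxed cells and 719 in untreated TβRII-/- cells. The 10 immune markers summed to between 718 and 949 normalized counts in any library. The 7 endothelial and fibroblast markers summed to between 138 and 158 in untreated floxed cells, 466 and 593 in untreated TβRII-/- cells, 43.4 and 49.3 in floxed cells with H2O2 and 62.1 and 85.5 in TβRII-/- cells with H2O2, most of it Kdr in untreated cells, with Pecam1, Cdh5 and Pdgfra at 4 counts or fewer in any library and Lum at 0. Their part in the differences below was not tested. In bulk RNA, a change in the share of cells and a change in RNA per cell cannot be told apart.

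Per length of transcript, the light chain was the most abundant of the 10 genes in every group. In untreated floxed cells, B2m had 3007 ± 329 CPM per kilobase (SD, n = 3, where CPM scales counts to a fixed library total), H2-D1 993 ± 88.2 and H2-K1 669 ± 74.6. Tap1 followed at 51.8 ± 5.2, an order of magnitude lower. Tapbp (35.4 ± 4.39) and Psmb8 (31 ± 1.53) had overlapping ranges, as had Tap2 (18.4 ± 2.23) and Nlrc5 (15 ± 1.14), so neither pair can be ordered. Psmb9 (8.65 ± 0.583) and H2-T23 (2.64 ± 0.38) were lowest. The order changed at the proteasome subunits: in untreated TβRII-/- cells, Psmb8 (46.6 ± 0.667) stood above Tapbp (31 ± 1.9) and Psmb9 (16.4 ± 0.662) above Nlrc5 (14.2 ± 0.182), without overlap in either case. B2m, H2-K1 and H2-D1 together took between 0.579% and 0.694% of the counts in untreated floxed cells and between 0.998% and 1.05% in TβRII-/- cells with H2O2. The transcripts of H2-K1, H2-T23 and Psmb9 that had the highest totals are annotated as retained introns, so their lengths, and with them these levels, are less certain than the fold changes. Each of those genes gave the same calls with its second transcript.

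**Figure D1:**
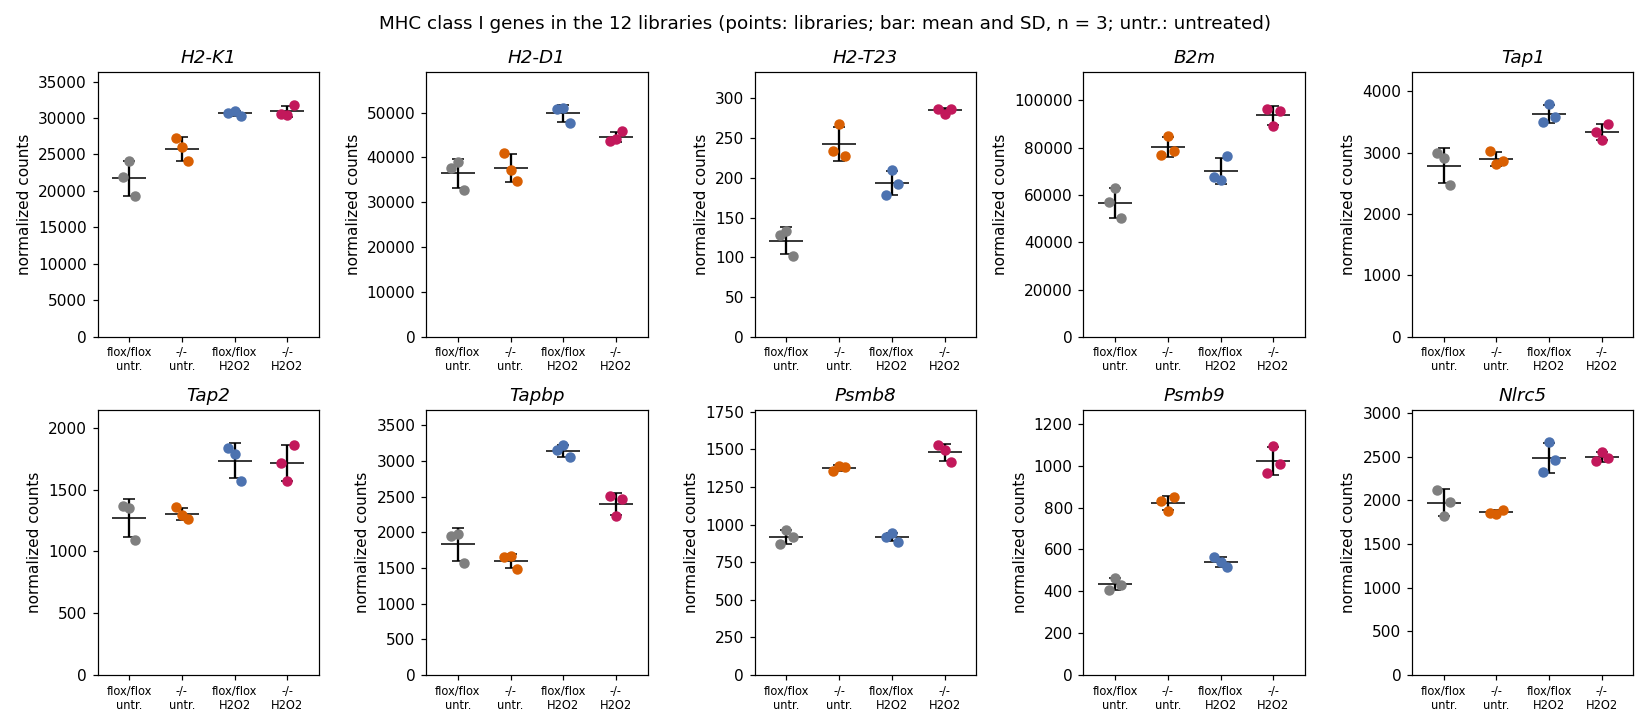
Normalized counts (vertical axes, from 0) of the 10 genes in each of the 12 libraries, with the mean and SD of each group (n = 3). Psmb8 and Psmb9 separate by genotype in both media, Tapbp is highest in TβRII flox/flox PT cells with H2O2, and Nlrc5 separates by treatment and not by genotype.

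Comparison of the genotypes without H2O2 asked which parts of the pathway differ when the receptor is deleted. The immunoproteasome subunits, the light chain, a nonclassical heavy chain and, by less, H2-K1 were higher in untreated TβRII-/- cells, whereas the transporter and the transactivator were not called. Of the 10 genes, 5 were called higher (background 33.3% of all genes tested) and Tapbp was called lower (background 31.4%), where a gene counted as called when its p from the quasi-likelihood test of edgeR, adjusted by Benjamini-Hochberg, was under 0.05. The median log2 change of the 10 genes was 0.15, and that of all genes tested was 0.0085. Most genes differed between the cultures, so a call alone sets none of the 10 apart. The share of all genes whose groups did not overlap is not given here, so a lack of overlap alone sets none apart either. The genotype and H2O2 comparisons share libraries, so their values are given side by side only.

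Psmb9, the inducible β1i subunit that shares its promoter region with Tap1, nearly doubled. Replicates 1, 2 and 3 had 406, 464 and 429 normalized counts in untreated floxed cells and 831, 784 and 848 in untreated TβRII-/- cells. The lowest TβRII-/- library lay well above the highest floxed one (values in brackets are the log2 fold change, or log2 change, with its standard error, SE: log2 change 0.92 ± 0.074 SE, adjusted p = 1.23e-12 by edgeR). Psmb8, the β5i subunit, had 870.0, 960.3 and 917 normalized counts in floxed and 1353, 1390 and 1383 in TβRII-/- cells, again without overlap (log2 change 0.59 ± 0.061 SE, adjusted p = 5.22e-10 by edgeR). The third inducible subunit, Psmb10, which lies outside the MHC, went the other way: it was called lower in untreated TβRII-/- cells (128 ± 21.9 against 162 ± 36.4 normalized counts, log2 change −0.34, adjusted p = 0.0393 by edgeR), with overlapping libraries.

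Tap1, a subunit of the peptide transporter and the neighbor of Psmb9, was not called. It had 2994, 2904 and 2470 normalized counts in untreated floxed cells and 3024, 2815 and 2856 in untreated TβRII-/- cells, and the groups overlapped (log2 change 0.06, 95% interval −0.08 to 0.19, adjusted p = 0.47 by edgeR). The ratio of Psmb9 to Tap1 within a library, per kilobase, was 0.146, 0.172 and 0.187 in untreated floxed cells and 0.296, 0.300 and 0.320 in untreated TβRII-/- cells. That is 1.82-fold higher, and 2.06-fold with H2O2, with no overlap in either medium. An exact two-sided permutation test gave p = 0.1 in both cases, the smallest that 3 libraries against 3 can give. The 2 genes overlap by up to 364 exonic bases on opposite strands. The library kit keeps the strand, but the strand setting of the counting is not given in the sources used here, so reads of one gene could be counted for the other. Tap2, the other subunit of the transporter, had 1364, 1353 and 1093 normalized counts in floxed and 1360, 1293 and 1264 in TβRII-/- cells, also overlapping (log2 change 0.04, 95% interval −0.12 to 0.20).

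B2m, the light chain of all class I molecules, had 56901, 62747 and 50360 normalized counts in untreated floxed cells and 77107, 84958 and 78625 in untreated TβRII-/- cells. All 3 libraries of the latter were higher (log2 change 0.50 ± 0.082 SE, adjusted p = 3.14e-06 by edgeR). The heavy chains split. H2-T23, which encodes the nonclassical Qa-1 that binds the NK cell receptor CD94/NKG2A, doubled from a low level, with 128, 134 and 101 normalized counts in floxed and 233, 267 and 227 in TβRII-/- cells (log2 change 1.003 ± 0.12 SE, adjusted p = 6.31e-09 by edgeR). H2-K1, a classical heavy chain, had 21877, 24098 and 19250 in floxed and 27267, 26024 and 24054 in TβRII-/- cells and was called higher although the groups overlapped (log2 change 0.25, adjusted p = 0.00416 by edgeR). H2-D1, the other classical heavy chain here, had 37691, 38923 and 32799 in floxed and 41072, 37099 and 34742 in TβRII-/- cells and was not called (log2 change 0.05, 95% interval −0.11 to 0.20).

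Sequence sharing limits the heavy chains. Of the 50-base windows of the transcript used, 10.4% in H2-K1 (the largest share of them with H2-D1), 14.2% in H2-D1 (with H2-Q1) and 19.6% in H2-T23 (with the pseudogene H2-T11-ps) occur in another gene's transcript, against none in B2m, Psmb8, Psmb9 and Nlrc5. Class I heavy chains also differ between mouse strains, and the MHC haplotype of these cells is not given. How reads that fit several genes were counted is not given in the sources used here.

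Tapbp holds the peptide-receptive heavy chain at the transporter. It overlaps other genes by up to 874 bases on the opposite strand and the protein-coding gene Zbtb22 by up to 76 bases on the same strand. Tapbp had 1950, 1975 and 1570 normalized counts in untreated floxed cells and 1652, 1663 and 1488 in untreated TβRII-/- cells (log2 change −0.19, adjusted p = 0.0196 by edgeR). The groups overlapped, and the call was lost with counts summed over transcripts (adjusted p = 0.0511) and without floxed replicate 1 (0.0865), floxed replicate 2 (0.118) or TβRII-/- replicate 3 (0.122). Nlrc5, the transactivator of class I promoters, had 2123, 1824 and 1979 normalized counts in floxed and 1857, 1848 and 1894 in TβRII-/- cells (log2 change −0.08, 95% interval −0.21 to 0.05, adjusted p = 0.253 by edgeR). Its groups overlapped. Replicate 3 of untreated floxed cells was the library of its group that differed most from its mates (12.7 and 8.29 in a chi-square statistic per gene, where other replicate pairs had 3.64 to 6.62) and was lowest for 7 of the 10 genes: without it, the log2 changes of H2-D1, Tap1 and Tap2 turned to −0.035, −0.035 and −0.068 and none was called.

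With H2O2 on both sides, 5 of the 6 genes called between untreated genotypes were called in the same direction, and H2-K1 was not called. Psmb9, Psmb8, H2-T23 and B2m were called higher (4 of 10, background 35.1%) and Tapbp lower (1 of 10, background 31.3%); the median of the 10 genes was 0.0094 and that of all genes 0.018. Psmb9 had 562, 538 and 515 normalized counts in floxed cells and 965, 1095 and 1010 in TβRII-/- cells (log2 change 0.93, adjusted p = 3.38e-13 by edgeR). Psmb8 had 920.2, 941 and 887 in floxed and 1530, 1493 and 1417 in TβRII-/- cells (log2 change 0.69, adjusted p = 9.07e-12 by edgeR). Neither gene had overlapping groups. Psmb10 was not called here, at 171 ± 9.93 in TβRII-/- cells against 178 ± 13.6 (log2 change −0.06, adjusted p = 0.698 by edgeR). B2m had 67753, 66357 and 76452 in floxed and 96403, 89157 and 95646 in TβRII-/- cells (log2 change 0.42), and H2-T23 179, 209.7 and 193 in floxed and 287, 281 and 286 in TβRII-/- cells (log2 change 0.56), also without overlap.

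Tapbp was lower, at 3157, 3224 and 3055 normalized counts in floxed cells and 2514, 2226 and 2470 in TβRII-/- cells, and the groups did not overlap (log2 change −0.39 ± 0.070 SE, adjusted p = 1.18e-05 by edgeR). H2-K1 was level at 30628 ± 358 and 30918 ± 781 (log2 change 0.01, 95% interval −0.14 to 0.16). H2-D1 stood lower in each library of TβRII-/- cells, at 43719, 44105 and 45926 against 50906, 51042 and 47591 (log2 change −0.16, adjusted p = 0.061 by edgeR); it was not called, but DESeq2 called it (adjusted p = 0.0172), and so did edgeR without floxed H2O2 replicate 3 (0.0226). Tap1 was also lower without overlap, at 3341 ± 132 against 3624 ± 147, and was called only when these 2 groups were fitted alone (adjusted p = 0.0261) or without floxed H2O2 replicate 1 (0.0386). Nlrc5 was at 2487 ± 169 and 2495 ± 53.9 (log2 change 0.01, 95% interval −0.12 to 0.13).

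**Figure D2:**
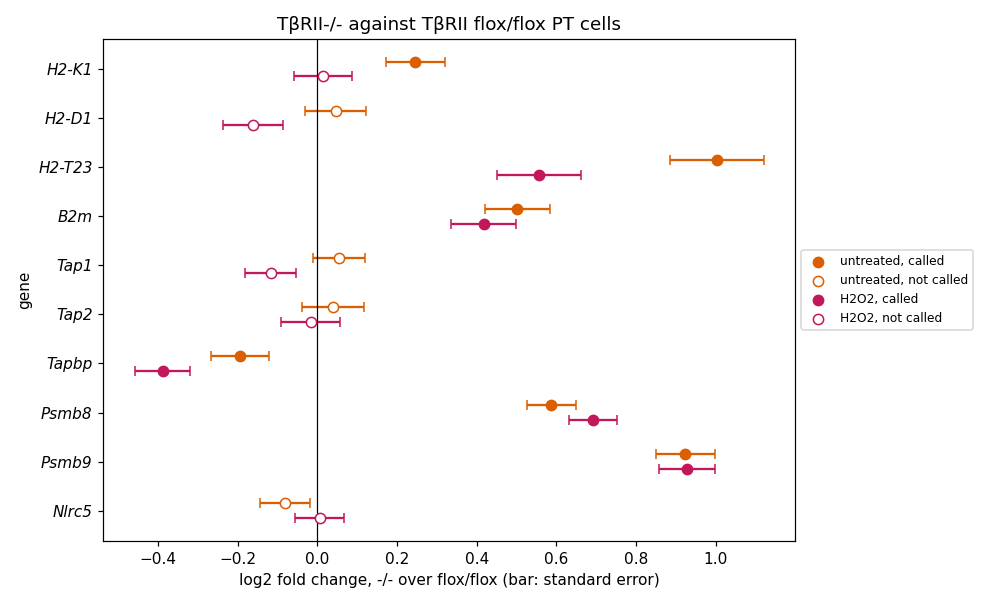
Log2 change of TβRII-/- over TβRII flox/flox PT cells (horizontal axis, with standard errors) for each gene, untreated and with H2O2, n = 3 libraries a group; filled points were called at an adjusted p under 0.05. Psmb9, Psmb8, H2-T23 and B2m lie to the right of 0 in both media and Tapbp to the left, with Nlrc5 near 0.

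Comparison of treated with untreated cells asked how the pathway responds to H2O2 in serum-free medium. In floxed cells, 9 of the 10 genes were called higher (background 21.0%) and none lower (background 20.5%), with a median log2 change of 0.41 against 0.0068 for all genes. In TβRII-/- cells, 8 of 10 were called higher (background 20.5%) and none lower (background 19.1%), with a median of 0.25 against 0.018. The 2 comparisons have separate controls. The rises were modest, at most 0.78 on the log2 scale, and Psmb8 was the exception in both genotypes.

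Tapbp rose most. It went from 1832 ± 227 to 3146 ± 84.9 normalized counts (SD, n = 3) in floxed cells (log2 change 0.78, adjusted p = 2.01e-10 by edgeR) and from 1601 ± 98.4 to 2404 ± 155 in TβRII-/- cells (0.59, adjusted p = 8.21e-08 by edgeR). The transporter rose with it: Tap2 by 0.45 and 0.39 on the log2 scale in the respective genotypes, and Tap1 by 0.38 and 0.20. The Tap1 call in TβRII-/- cells was lost with counts summed over transcripts (adjusted p = 0.0533) and without TβRII-/- H2O2 replicate 3 (0.0652) or untreated replicate 2 (0.0572). Every treated library stood above every untreated one of its genotype for all these genes, a separation whose share over all genes is not given here.

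The classical heavy chains rose too. H2-K1 went from 21742 ± 2427 to 30628 ± 358 normalized counts in floxed cells (log2 change 0.49, adjusted p = 2.52e-06 by edgeR) and from 25782 ± 1620 to 30918 ± 781 in TβRII-/- cells (0.26, adjusted p = 0.00488 by edgeR), and the treated means of the genotypes were close to each other. H2-D1 rose by 0.45 and 0.24 on the log2 scale, the latter not called without TβRII-/- untreated replicate 3 (adjusted p = 0.0829). B2m rose by 0.31 (adjusted p = 0.00297 by edgeR) and 0.22 (adjusted p = 0.0292 by edgeR); the second of these was lost when 1 of 4 libraries was left out (adjusted p between 0.0858 and 0.106), namely TβRII-/- replicates 1 and 3 of either medium. H2-T23 rose by 0.68 in floxed cells (adjusted p = 4.08e-05 by edgeR), whereas its log2 change of 0.23 in TβRII-/- cells was not called (adjusted p = 0.0697 by edgeR), except without TβRII-/- untreated replicate 2 (adjusted p = 0.0383).

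Nlrc5 rose in both genotypes, from 2123, 1824 and 1979 to 2329, 2666 and 2465 normalized counts in floxed cells (log2 change 0.33, adjusted p = 6.99e-05 by edgeR) and from 1857, 1848 and 1894 to 2451, 2555 and 2480 in TβRII-/- cells (0.42, adjusted p = 2.21e-06 by edgeR). Psmb9 rose by 0.32 and 0.32 on the log2 scale. Psmb8, next to Tap1 in the same cluster, had a mean of 916 ± 45.2 untreated and 916 ± 27.2 with H2O2 in floxed cells (log2 change 0.0012, 95% interval −0.13 to 0.13) and 1376 ± 19.7 and 1480 ± 57.8 in TβRII-/- cells (log2 change 0.11, adjusted p = 0.153 by edgeR).

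**Figure D3:**
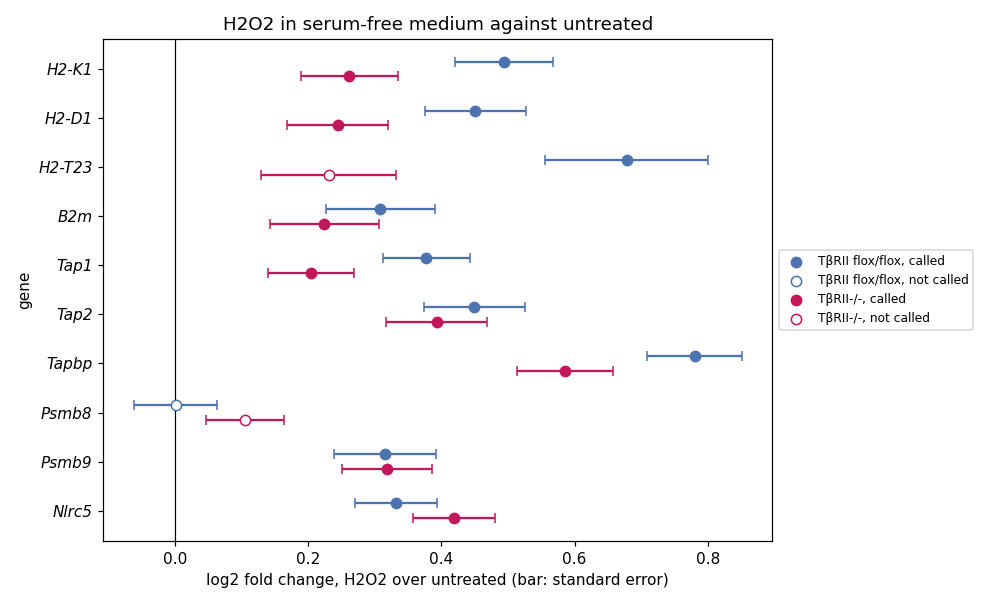
Log2 change of H2O2 over untreated cells (horizontal axis, with standard errors) for each gene in TβRII flox/flox and TβRII-/- PT cells, n = 3 libraries a group; filled points were called. Tapbp lies farthest right in both genotypes and Psmb8 closest to 0 in both.

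Whether the response differed between genotypes was tested as the difference of the 2 log2 changes. None of the 10 genes was called by edgeR or by DESeq2, while over all genes 3.90% were called higher and 6.28% lower in TβRII-/- cells. An unadjusted p under 0.05 by edgeR was reached by 2 of the 10, against 3079 of all 12971 genes tested. Among the 10, H2-T23 and H2-K1 had the lowest p. The response of H2-T23 in TβRII-/- cells minus that in floxed cells was −0.45 on the log2 scale (95% interval −0.77 to −0.12, adjusted p = 0.0679 by edgeR). For H2-K1 it was −0.23 (95% interval −0.44 to −0.02, adjusted p = 0.161 by edgeR). Both were called without floxed untreated replicate 2 (adjusted p = 0.0413 and 0.0380), and H2-T23 also without floxed untreated replicate 1 (0.0388) or floxed H2O2 replicate 1 (0.0440). The difference was 0.0033 for Psmb9 (95% interval −0.21 to 0.22) and 0.09 for Nlrc5 (95% interval −0.09 to 0.27).

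The constitutive proteasome subunits were called lower with H2O2 and, in part, higher in TβRII-/- cells. With H2O2 the constitutive subunits Psmb5, Psmb6 and Psmb7 were called lower in floxed cells (3 of 3, against 20.5% of all genes), with overlapping libraries for Psmb5 and Psmb6. In TβRII-/- cells, 2 of 3, Psmb5 and Psmb7, were called lower (19.1% of all genes). Psmb7 fell from 1521 ± 152 to 1245 ± 79.3 and from 2112 ± 184 to 1680 ± 78.3 normalized counts. Between untreated genotypes, 2 of 3, Psmb5 and Psmb7, were called higher in TβRII-/- cells (33.3% of all genes, log2 change 0.28 and 0.47) and Psmb6 was not (−0.03). Psmb5 again had overlapping libraries. Per kilobase, the ratio of Psmb9 to Psmb6, the subunit it replaces, was 0.0761 ± 0.0032 in untreated floxed cells, 0.109 ± 0.0039 with H2O2, 0.148 ± 0.0046 in untreated TβRII-/- cells and 0.197 ± 0.0014 with H2O2 (SD, n = 3). None of these groups overlapped. The ratio of Psmb10 to Psmb7 ran the other way between genotypes, 0.0933 ± 0.0119 in untreated floxed cells and 0.0532 ± 0.0051 in untreated TβRII-/- cells. Exact two-sided permutation tests gave p = 0.1 for each of these steps, the smallest possible with 3 against 3. Psme1, a subunit of the PA28 proteasome activator, was called higher in all 4 comparisons (log2 change 0.27 between untreated genotypes), and its partner Psme2 in none.

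**Figure D4:**
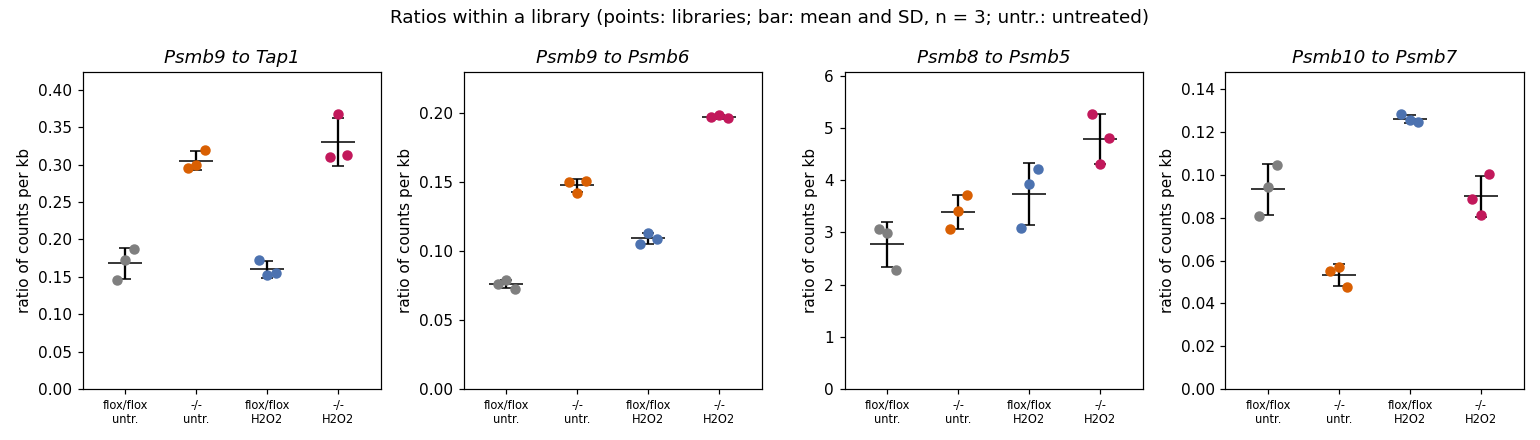
Ratios of counts per kilobase within each library (vertical axes, from 0) for Psmb9 to its neighbor Tap1 and for 3 inducible proteasome subunits to the constitutive subunits they replace, with the mean and SD of each group (n = 3). Psmb9 to Tap1 separates the genotypes in both media, Psmb9 to Psmb6 separates all 4 groups, and Psmb10 to Psmb7 is lower in TβRII-/- PT cells.

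Other genes of the pathway were described by lists. Of 13 further class I heavy chains, 9 were tested. Between untreated genotypes, 5 of 9 were called higher in TβRII-/- cells (33.3% of all genes) and none lower (31.4%), with a median log2 change of 0.19. H2-Q1 was at 0.67, H2-T22 at 0.62 and H2-T10 at 0.45. H2-Q1 rested on few counts, 18 to 21 in floxed and 30 to 39 in TβRII-/- libraries (SE 0.29, adjusted p = 0.0454 by edgeR). With H2O2 on both sides, 2 of 9 were called higher (35.1% of all genes) and 3 lower (31.3%), with a median of 0.061. Those called lower were H2-Q4 (−0.20), H2-Q6 (−0.26) and H2-M3 (−0.22). H2-Q5, a further class I gene of the Q region, was not on the list and had a log2 change of −0.65 between untreated genotypes, so the absence of lower calls holds for the listed genes only. With H2O2 against untreated, 7 of 9 were called higher in floxed cells (21.0% of all genes, median 0.52) and 6 of 9 in TβRII-/- cells (20.5%, median 0.37), none lower. These genes resemble H2-K1 and H2-D1 in sequence, so reads may be shared. Of 4 class I-like proteins that pair with B2m, Fcgrt, the neonatal Fc receptor, fell from 649 ± 82.6 to 263 ± 22.8 normalized counts in untreated TβRII-/- cells (log2 change −1.30, adjusted p = 5.02e-14 by edgeR) and Mr1, which presents microbial metabolites, was also called lower (−0.51), while Hfe, the iron regulator, was called higher (0.67).

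ER chaperones and trimming enzymes of class I assembly were mostly lower in TβRII-/- cells. Of 8 genes, 7 were called lower in untreated TβRII-/- cells (31.4% of all genes, median log2 change −0.42). With H2O2 on both sides, 7 were called lower (31.3% of all genes, median −0.65). Calnexin (Canx), which receives new heavy chains, went from 21769 ± 1580 to 13366 ± 895 normalized counts (log2 change −0.70), Uggt1, the folding sensor, changed by −0.63 and Sec61a1, part of the translocation channel, by −0.62. With H2O2, 5 of the 8 were called higher (21.0% of all genes) and none lower (20.5%) in floxed cells (median 0.22). In TβRII-/- cells, 2 were called higher (20.5% of all genes) and 1 lower (19.1%), with a median of 0.013. Most of these proteins serve all secretory proteins rather than MHC class I alone. Tapbpl, the tapasin homolog TAPBPR, was the one not called (0.15). Among 6 cytosolic peptidases, 2 were called higher (33.3% of all genes) and 3 lower (31.4%) in untreated TβRII-/- cells, led by Lap3 (0.52), Tpp2 (−0.27) and Nrdc (−0.25).

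Of 12 transcription factors that act on class I promoters, 4 were called higher and 4 lower in untreated TβRII-/- cells, close to the shares over all genes (33.3% and 31.4%). Rfx5, a subunit of the factor that holds the enhanceosome on the X box, had 337 ± 19.8 and 523 ± 27 normalized counts (log2 change 0.64, adjusted p = 4.96e-08 by edgeR), and its partner Rfxap was called lower (−0.51). Irf1, the interferon-induced activator of Psmb9 and Tap1, was called higher in all 4 comparisons (log2 change 0.23 and 0.34 between genotypes, 0.25 and 0.36 with H2O2). Nfkb1, the p50 subunit of NF-κB, went from 4458 ± 172 to 2340 ± 107 normalized counts (log2 change −0.93). With H2O2, 3 of the 12 were called higher (21.0% of all genes) and 3 lower (20.5%) in floxed cells. In TβRII-/- cells, 5 were called higher (20.5% of all genes) and 1 lower (19.1%).

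IFNγ itself (Ifng) and Ifnb1 were at 0 counts in all 12 libraries. Of 10 tested genes of the IFNγ receptor and its signaling, 1 was called higher (33.3% of all genes) and 5 lower (31.4%) in untreated TβRII-/- cells. Both receptor chains were among the latter, Ifngr1 at 1623 ± 152 and 829.7 ± 72.5 normalized counts (log2 change −0.97) and Ifngr2 at −0.49, while Jak2, the kinase on Ifngr2, was higher (0.63). Among 12 tested IFNγ targets outside class I, 1 was called higher (33.3% of all genes) and 5 lower (31.4%) in untreated TβRII-/- cells (median −0.21). The GTPases Iigp1 (−1.56), Tgtp1 (−1.55) and Irgm1 (−1.20) changed most among those called. Of the other GTPases of the list, Gbp7 was called lower (−0.48), whereas Irgm2 (0.14), Igtp (−0.12), Gbp2 (0.06), Gbp3 (−0.22) and Gbp5 (−0.21) were not called. The target called higher was Ciita (1.02). These 7 genes were named after their values were seen. With H2O2, 3 of the 12 targets were called higher (21.0% of all genes) and 2 lower (20.5%) in floxed cells. In TβRII-/- cells, 7 were called higher (20.5% of all genes) and none lower (19.1%). Of 7 tested genes of type I interferon signaling, none was called higher (33.3% of all genes) and 4 lower (31.4%) in untreated TβRII-/- cells, led by Ifnar1 (−0.84), Ifnar2 (−0.76) and Stat2 (−0.40). With H2O2, 6 of these 7 were called higher in floxed cells (21.0% of all genes) and 5 in TβRII-/- cells (20.5%). Cxcl9 and Ido1, strongly IFNγ-induced in many cells, were at 0 counts in every library. The 12 tested targets, another chemokine among them, were counted, so these 2 do not stand for the list.

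Genes of MHC class II presentation, the pathway of professional antigen-presenting cells that epithelia can also switch on, were mostly higher with H2O2. Of 8 tested, 5 were called higher in floxed cells (21.0% of all genes) and 7 in TβRII-/- cells (20.5%), none lower, and 3 had a called larger response in TβRII-/- cells (3.90%). Between untreated genotypes, 2 were called higher (33.3% of all genes) and 2 lower (31.4%). Cd74, the invariant chain (named after its values were seen), went from 581 ± 55.5 to 1316 ± 35 normalized counts in floxed cells and from 761 ± 34.8 to 2358 ± 162 in TβRII-/- cells. Ciita, the class II transactivator and relative of Nlrc5, was near the limit of detection in floxed cells (12.6 ± 5.19 untreated and 20.8 ± 8 with H2O2). It was higher in untreated TβRII-/- cells, at 25.7 ± 2.58 (log2 change 1.02, adjusted p = 0.00753 by edgeR), and reached 102 ± 8.6 there with H2O2 (log2 change 1.98, adjusted p = 1.75e-08 by edgeR). Nlrc5 differed by 0.01 between the genotypes with H2O2. Between untreated genotypes, H2-Ab1 and H2-Aa, the chains of a class II molecule, were called lower in TβRII-/- cells (−0.81 and −0.54) and Cd74 was called higher (0.39). Of 4 tested ligands of the NK receptor NKG2D, 1 was called higher (33.3% of all genes) and 2 lower (31.4%) in untreated TβRII-/- cells. Raet1d changed most (1.43), Raet1e by −0.46 and Ulbp1 by −0.17.

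Neighbors of the 8 genes in the MHC region were called in both directions. Between Tapbp and H2-T23, 79 other protein-coding genes were tested, H2-Q5 among them. They include H2-DMa, H2-DMb1, H2-DMb2, H2-Ab1, H2-Aa and H2-Eb1, which were also counted in the class II list above. Of the 79, 20 were called higher (33.3% of all genes) and 21 lower (31.4%) in untreated TβRII-/- cells (median log2 change 0.0024). With H2O2, 21 were called higher (21.0% of all genes) and 9 lower (20.5%) in floxed cells (median 0.099). In TβRII-/- cells, 22 were called higher (20.5% of all genes) and 9 lower (19.1%), with a median of 0.086. The 10 class I genes had medians of 0.41 and 0.25 in the respective genotypes. Within the cluster of 4 adjacent genes, Psmb9 and Psmb8 were higher in untreated TβRII-/- cells while Tap1 and Tap2 between and beside them were not called.

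**Figure D5:**
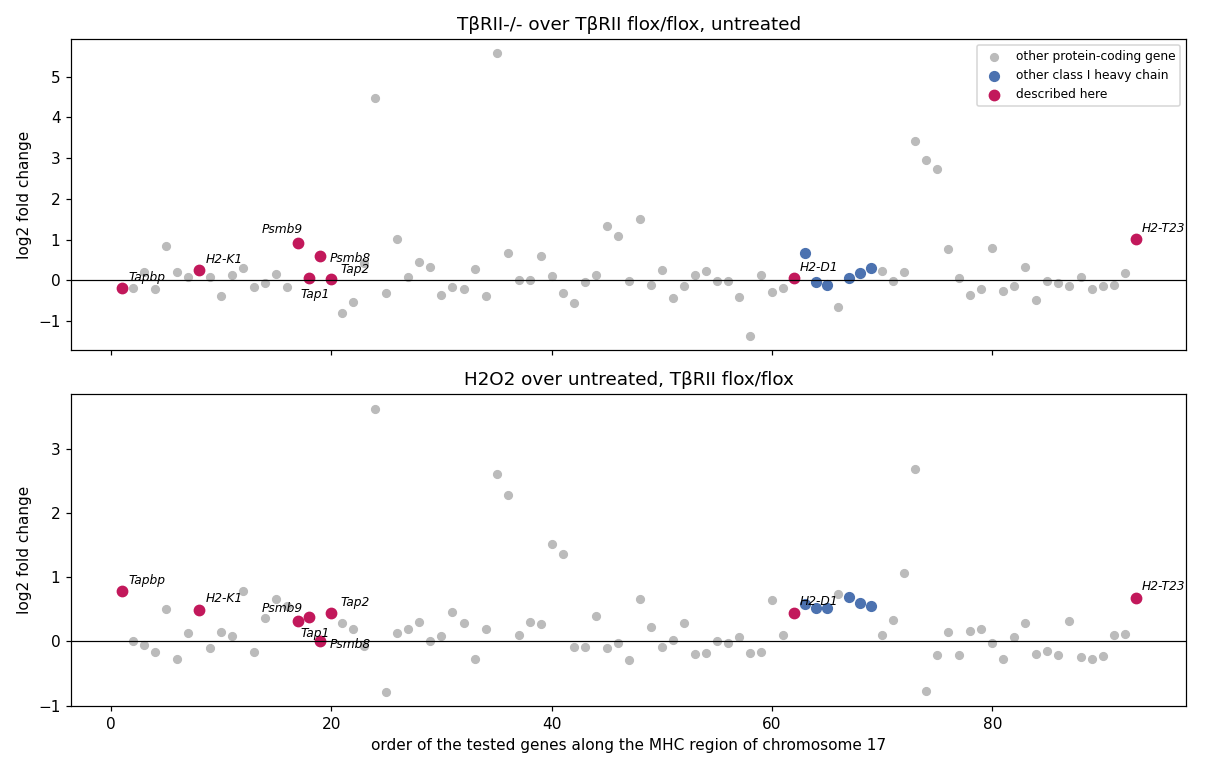
Log2 change (vertical axes) of the 93 tested protein-coding genes of the MHC region in their order along chromosome 17 (horizontal axis, rank), between untreated genotypes and with H2O2 in TβRII flox/flox PT cells. In the upper panel Psmb9, Psmb8 and H2-T23 lie above 0 and Tap1 and Tap2 near it, and in the lower panel 7 of the 8 genes lie clearly above 0 and Psmb8 does not.

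Among the genes whose levels over the 12 libraries were most like H2-K1 in Pearson's r of log2 CPM were Ergic3 (r = 0.974), which acts between ER and Golgi, and the ER-phagy receptor Retreg2 (0.971). For Nlrc5 they were the chromatin remodeler Chd6 (0.975), C1rl (0.975) and Acrbp (0.969). The 12 libraries fall into 4 groups of 3, so these values describe the order of group levels. Ergic3 had 2383 ± 208 normalized counts in untreated floxed cells, 2881 ± 123 in untreated TβRII-/- cells, 3161 ± 59.7 and 3259 ± 161 with H2O2 in the respective genotypes.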

How the data were processed

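RNA was extracted for 12 libraries (the labels name a Qiagen kit, the study's methods a Macherey-Nagel kit), and stranded mRNA libraries were sequenced. The authors trimmed reads with fastp, aligned them with STAR to GRCm38.p6 (GENCODE M23) and counted with featureCounts; the handling of strand and of multimapping reads is not given in the sources used here. They deposited whole-number counts per Ensembl transcript, 106332 per library, where the tests had been designed for counts per gene. Totals were 51387170 to 69231661 over all transcripts, in which a read that lies in several transcripts of a gene may be counted for each. Transcripts were assigned to genes with GENCODE M39, leaving 1.22% to 1.28% of counts unmatched, and the transcript with the highest total represented each gene. Genes were tested with edgeR 4.0.16 in R 4.3.3 (TMM, filterByExpr, quasi-likelihood, 4 group means), with Benjamini-Hochberg adjustment over 12971 genes. In simulated counts for the untreated genotypes (12292 genes) 197 of 200 changed genes were recovered and 10 unchanged ones called. The changed genes were altered 2-fold and drawn from genes above a minimum mean count. Recovery of smaller changes, such as most of those reported here, was not tested. Nor was recovery where many genes change: in the data 4318 of 12971 genes were called higher and 4069 lower between untreated genotypes. Alternatives were DESeq2 1.42.0 and its size factors, 2 filters, summed or second transcripts, a replicate block, fits of 2 groups, and leaving out each library. All 10 genes are named, and for each list the 3 called genes with the largest difference between untreated genotypes, with any gene of the interferon-gamma, heavy chain, proteasome and enhanceosome lists. Ratios between genes were compared by exact permutation tests, and likeness was Pearson's r over the 12 libraries. Some genes that fall under this rule are not reported here. Genes and lists were chosen with earlier results of these data known.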

Additional observations from a re-analysis of the deposited data

How the results depend on the processing

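The number of the 10 genes called between untreated genotypes was 6 and stayed between 5 and 6 over all alternatives, that with H2O2 on both sides was 5 (5 to 7), that for H2O2 in floxed cells was 9 throughout, and that for H2O2 in TβRII-/- cells was 8 (7 to 8, and 6 to 8 when 1 library was left out). For the difference in response it was 0, and between 0 and 2 when 1 library was left out, while over all genes it was 1321, with 833 and 878 without TβRII-/- H2O2 replicates 1 and 2. Same-numbered libraries correlated between −0.101 and 0.0582 in their deviations from the group means, so no deviation shared by number was seen. These values cannot tell whether same-numbered libraries were prepared together. A fit with replicate number as a block called the same numbers of the 10 genes, 6, 5, 9, 8 and 0. Directions turned for log2 changes near 0, none of them called in the original fit. H2-K1 between genotypes with H2O2 (0.014) was −0.00079 with DESeq2 size factors and −0.00079 with DESeq2, −0.014 with summed transcripts, and −0.031 to 0.027 without single libraries. Nlrc5 in the same comparison (0.0052) was −0.0095, −0.0095 and −0.028 under these settings, −0.0069 with the 2 groups alone, and −0.074 to 0.031 without single libraries. The difference in response of Psmb9 (0.0033) was −0.012 with DESeq2 size factors, −0.012 with DESeq2, −0.0024 with at least 10 counts in every library, −0.021 with summed transcripts, and −0.073 to 0.046 without single libraries. Psmb8 with H2O2 in floxed cells (0.0012) was −0.0083 without a filter, −0.0071 with summed transcripts, −0.022 with second transcripts, −0.0018 with the 2 groups alone, and −0.024 to 0.042 without single libraries. Without single libraries, the ranges were −0.035 to 0.10 for H2-D1, −0.035 to 0.10 for Tap1 and −0.068 to 0.090 for Tap2 between untreated genotypes, −0.12 to 0.044 for Tap2 with H2O2, and −0.15 to 0.018 for the difference in response of Tap2. The cause was not tested. The fit of 2 groups cannot give the difference in response. With 3 libraries a group, exact tests of single ratios cannot go below 0.1.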
